A study of Mus musculus with 6 samples.

Results

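The transcription factor gene Myc and 35 genes whose products build ribosomes in the nucleolus were followed through 2 perturbations of cultured mouse progenitor cells. The 36 genes were chosen by name, from what is known of their products and with no threshold on their levels, although earlier results of these data were known, and all 36 had a column among the 27998 genes of the deposited single-cell table. The members other than Myc fall into 6 roles, with 4 abundant nucleolar proteins, 4 box C/D snoRNP proteins, 4 box H/ACA snoRNP proteins, 3 subunits of RNA polymerase I, 6 small-subunit processing factors and 14 large-subunit assembly factors.

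The cells were iGMPs, granulocyte-macrophage progenitors of a Lys-GFP mouse (strain given as C57BI/6) immortalized with HOXA9 fused to an estrogen receptor domain, so that they self-renew in estradiol and stem cell factor. In the CAF-1 OFF arm, a clone carrying an IPTG-inducible shRNA to Chaf1b, which encodes part of the CAF-1 histone chaperone, was sampled before and at 48 h and 96 h of 500 µM IPTG with estradiol kept. In the HOXA9 OFF arm, a control-vector clone was sampled in estradiol and at 48 h and 96 h after estradiol was withdrawn, a step that leads to neutrophils. Each of the 6 groups was 1 10x 3′ library of 473 to 1510 kept cells and 3524285 to 5589486 UMIs, with no replicate, so no test between conditions was possible, and intervals below are exact 95% intervals that cover counting error only. The arms were different clones and no IPTG-treated control library was analysed here, so IPTG exposure and CAF-1 loss cannot be told apart.

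Chaf1b stood at 35.6, 3.22 and 6.49 CPM (counts per 1000000 UMIs of the library) at 0, 48 and 96 h of CAF-1 OFF, and at 51.5, 15.3 and 1.13 CPM under HOXA9 OFF. The 8 progenitor markers, Cd34 and Kit among them, summed to 1404 and 1330 CPM in the 0 h libraries, and 7 markers of T, B, stromal, liver and epithelial cells were all at 0 there. The limits on genes and mitochondrial UMIs together removed 41.7% and 66.2% of the barcodes of the 0 h libraries but 0.198% at 96 h of HOXA9 OFF. Median UMIs per kept cell ran from 8660 at 0 h to 2043.5 at 96 h in that arm. Among the kept cells, 16 of 5856 barcode sequences occurred in more than 1 library.

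Ribosome production starts in the nucleolus, where RNA polymerase I transcribes the ribosomal RNA precursor. Small nucleolar ribonucleoproteins (snoRNPs) then guide its methylation (box C/D) and pseudouridylation (box H/ACA), and separate sets of factors cut, fold and assemble the small and large subunits. MYC, which binds the E-box CACGTG as a pair with MAX, is known to activate many of these genes, and dividing blood progenitors make many ribosomes while neutrophils make few.

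At 0 h the arms had nearly the same level of nucleolar member transcripts in CPM, though not in UMIs per kept cell (56.4 and 75.8). The summed level of the 35 nucleolar members was 8655 CPM (8567 to 8745) in CAF-1 OFF and 8560 CPM (8471 to 8649) in HOXA9 OFF, a ratio of 0.989 (0.975 to 1.004). On log2(CPM + 10), the scale of every 2-fold call here, none of the 36 members differed 2-fold between the 0 h libraries, beside 0.146% of the 4789 genes averaging 20 CPM or more that were 2-fold lower in the HOXA9 OFF clone and 0.752% that were 2-fold higher. Single members still differed beyond counting error. Ddx18, a DEAD-box helicase of large-subunit assembly, stood at 123 CPM in the CAF-1 OFF clone and 184 CPM in the HOXA9 OFF clone, with a ratio between 1.34 and 1.68, and the box C/D sum had a ratio of 0.885 (0.847 to 0.925).

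From this common level the sum went to 6319 CPM (6253 to 6385) and 5357 CPM (5295 to 5419) at 48 and 96 h of CAF-1 OFF. It was 1.37-fold lower (1.35 to 1.39) and 1.62-fold lower (1.59 to 1.64) than at 0 h. In HOXA9 OFF it went to 2170 CPM (2131 to 2210) and 634 CPM (608 to 661), or 3.94-fold lower (3.86 to 4.03) and 13.5-fold lower (12.9 to 14.1). Both arms were thus lower at 48 h and lower again at 96 h, and the lowest CAF-1 OFF library was above the highest later HOXA9 OFF library. Counted as UMIs per kept cell, which also carries the total RNA captured from a cell, the sum was 56.4, 38.1 and 31.7 in CAF-1 OFF, against 75.8, 8.21 and 1.48 in HOXA9 OFF.

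**Figure D1:**
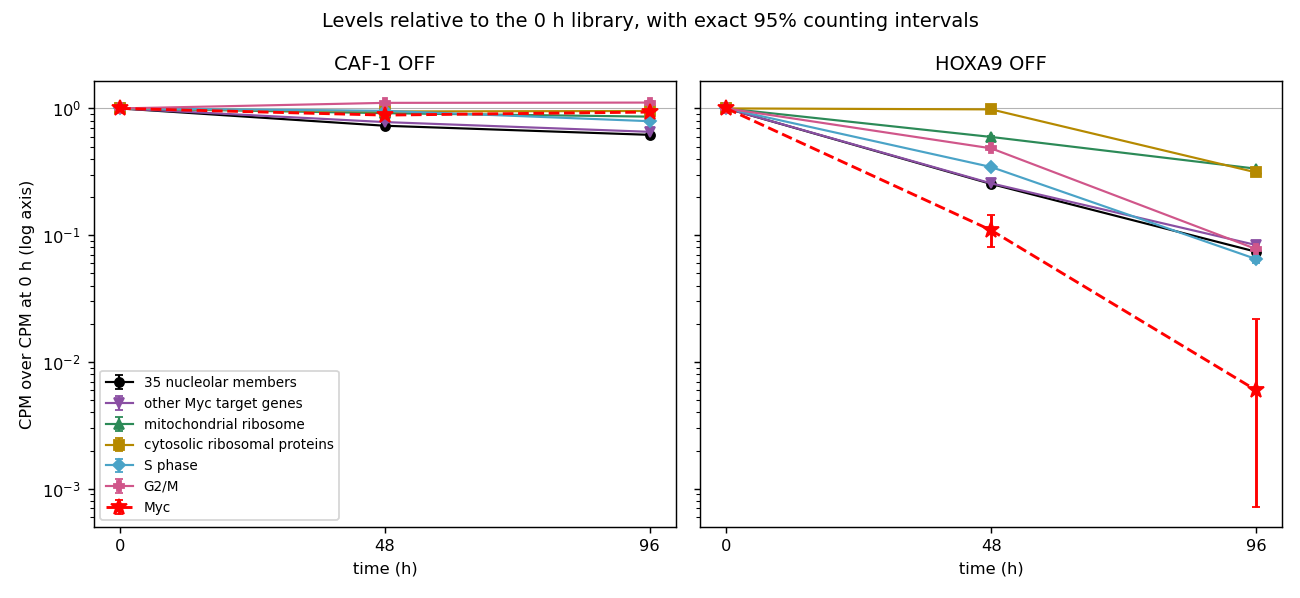
Summed CPM of gene lists, and the CPM of Myc, divided by the value at 0 h (log axis) against time in hours, for each arm. Bars are exact 95% counting intervals, and each point is 1 library. Myc stayed near 1 in CAF-1 OFF while the nucleolar sum went to 0.619 of its 0 h level, and in HOXA9 OFF cytosolic ribosomal protein genes were at 0.983 at 48 h when the nucleolar sum was at 0.254.

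Myc itself separated the arms. It lies on chromosome 15 (GRCm38.p6, 61985341 to 61990361). Its level was 102 CPM (428 UMIs) at 0 h, 90.0 CPM (503 UMIs) at 48 h and 95.1 CPM (513 UMIs) at 96 h of CAF-1 OFF. The 0 h value was 1.13-fold (0.990 to 1.29) that of 48 h and 1.07-fold (0.937 to 1.22) that of 96 h, so a difference was not detectable at this depth at either time. In HOXA9 OFF, Myc went from 94.7 CPM (397 UMIs) to 10.4 CPM (55 UMIs) and 0.567 CPM (2 UMIs), which was 9.15-fold (6.89 to 12.4) and 167-fold (45.9 to 1383) lower. The nucleolar sum was lower at 96 h of CAF-1 OFF, and Myc RNA in the same library was within counting error of its 0 h level. MYC protein was not measured here, and a link between Myc and the sum was not tested.

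In cells thinned to 1300 UMIs each, a Myc UMI was found in 14.7% of cells (12.0% to 17.7%) at 0 h, 9.81% (7.95% to 11.9%) at 48 h and 10.8% (8.81% to 13.0%) at 96 h of CAF-1 OFF. The summed Myc level of these thinned cells was 125, 78.9 and 93.0 CPM, with intervals of 102 to 152, 63.7 to 96.6 and 76.3 to 112. These come from 1 random thinning. At 2600 UMIs the shares were 21.5%, 19.2% and 20.8%, with overlapping intervals, so the lower 48 h share at 1300 UMIs did not hold at both depths. In HOXA9 OFF the share went from 11.4% (8.71% to 14.7%) to 0.945% (0.504% to 1.61%) and 0.0727% (0.00184% to 0.404%). The last of these was 1 cell of 1376. No cell type that lacks Myc was set apart within these libraries, so the share that free RNA gives is unknown. Without thinning, Myc UMIs were found in 44.5%, 37.0% and again 37.0% of the CAF-1 OFF cells and in 49.9%, 3.42% and 0.132% of HOXA9 OFF cells.

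Genes of the proteins that pair with MAX or compete for it were in part higher at the later times of HOXA9 OFF. Of the 14 other MYC network genes in the table, 6 had a mean of at least 20 CPM. At 96 h of HOXA9 OFF 3 of these were at least 2-fold higher, beside 18.1% of the 4789 genes that met this limit. None of the 6 was 2-fold higher at 48 h of HOXA9 OFF or at either time of CAF-1 OFF. Mxd1 met the limit only through its level at 96 h of HOXA9 OFF, being under 20 CPM in every other library. The count of 3 therefore cannot be weighed against the 18.1%. Mxd1, which encodes a MAX partner that represses MYC targets, was at 4.03, 9.84 and 9.83 CPM under CAF-1 OFF, against 7.40, 18.5 and 113 CPM under HOXA9 OFF. Mxi1, of the same family, was at 10.2, 18.1 and 22.2 CPM under CAF-1 OFF, against 15.3, 40.1 and 100 CPM under HOXA9 OFF. Max was at 82.3, 85.7 and 97.3 CPM against 77.8, 87.8 and 166 CPM. Mxd4 and Mlx were highest at 48 h of HOXA9 OFF. Mxd4 was at 56.9, 53.0 and 43.0 CPM under CAF-1 OFF, against 57.3, 94.3 and 75.8 CPM under HOXA9 OFF, and Mlx was at 20.6, 25.8 and 26.3 CPM against 26.3, 59.5 and 33.5 CPM. Mycn, the paralog active in early progenitors, was at 8.07, 6.44 and 6.67 CPM in the CAF-1 OFF clone but at 0.955, 0 and 0 CPM in the HOXA9 OFF clone. A list of 24 other known Myc target genes held metabolic enzymes, chaperones and cell cycle genes, among others. It summed to 0.781 and 0.654 of its 0 h level in CAF-1 OFF, against 0.256 and 0.0836 in HOXA9 OFF. In the same order the nucleolar sum was at 0.730, 0.619, 0.254 and 0.0741. Within that list Ldha, a glycolytic enzyme, was at 1028, 773 and 497 CPM under CAF-1 OFF and Srm, a polyamine synthase, was at 348, 29.2 and 1.70 CPM under HOXA9 OFF. Odc1 and Ccnd2 went against the list in CAF-1 OFF, at 126, 134 and 135 CPM and at 203, 215 and 218 CPM.

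**Figure D2:**
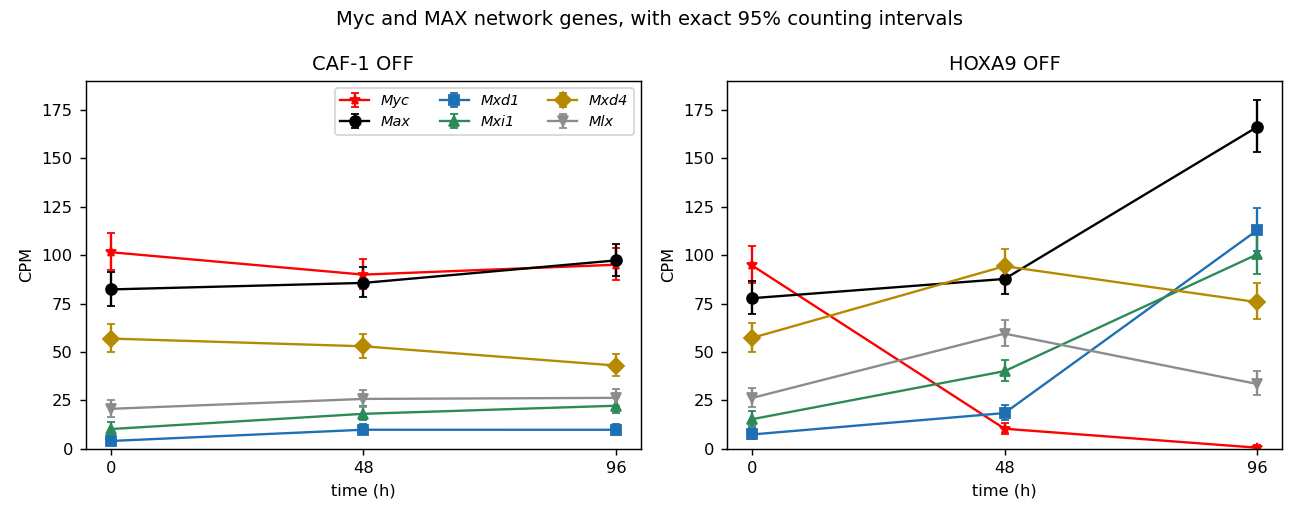
Level in CPM of Myc, Max and 4 genes of the MAX network (Mxd1, Mxi1, Mxd4, Mlx) against time in hours, 1 library per point, with exact 95% counting intervals. In HOXA9 OFF the Myc line ended at 0.567 CPM while Max ended at 166, Mxd1 at 113 and Mxi1 at 100 CPM, and in CAF-1 OFF Myc stayed between 90.0 and 102 CPM.

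Counted gene by gene on log2(CPM + 10), none of the 35 nucleolar members was 2-fold lower at 48 h or 96 h of CAF-1 OFF, beside 0.0263% and 0.342% of the 15185 genes with any UMI. None was 2-fold higher either. This call adds 10 CPM, so Heatr1 and Utp20, under 10 CPM at 0 h, could not be called lower. In CPM alone Rrp12 was over 2-fold lower at both times, and Polr1a and Wdr75 were at 96 h. The shift was small in most members but shared. At 48 h 32 of 35 were below their 0 h value, with a median of -0.39 (quartiles -0.48 and -0.31), and at 96 h 34 of 35 were, with a median of -0.56 (-0.68 and -0.37), beside medians of 0.02 and 0.00 over all genes with any UMI. The counting interval of the fold lay wholly under 1 for 30 members at 48 h and 31 at 96 h. The exceptions at 96 h were Polr1e, Heatr1, Utp20 and Rrp1b, and none had an interval wholly over 1.

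In HOXA9 OFF 29 of the 35 were at least 2-fold lower at 48 h and 33 at 96 h, beside 7.46% and 16.2% of the genes with any UMI, and none was higher. The medians were -1.75 (quartiles -2.26 and -1.24) and -2.56 (-3.37 and -1.68), beside 0.00 and -0.03 over all genes with any UMI. In both arms most genes with any UMI averaged under 20 CPM, where the added 10 CPM holds the difference near 0. All 35 intervals lay under 1 at both times. The members not called lower at 48 h were Nhp2, Polr1e, Heatr1, Rrp12, Pes1 and Rrp1b. At 96 h they were Polr1a and Heatr1, which has under 20 UMIs in each library. In CPM alone all of these but Nhp2 and Pes1 were over 2-fold lower at those times. Heatr1, under 10 CPM at 0 h, could not be called lower with 10 CPM added.

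An average of 20 CPM or more across the 6 libraries was reached by 28 nucleolar members and Myc, and the 7 below it were Polr1a, Polr1b, Polr1e, Heatr1, Utp20, Rrp12 and Tsr1. With this level limit, 0 of 28 were 2-fold lower in CAF-1 OFF at either time, beside 0.0418% and 0.856% of the 4789 genes that met it, and 25 and 28 were in HOXA9 OFF, beside 19.6% and 39.8%. None of the 28 was 2-fold higher in any of these comparisons, beside 2.76% and 5.22% of genes in CAF-1 OFF, against 13.0% and 18.1% in HOXA9 OFF. The medians of the 28 in CAF-1 OFF were -0.41 and -0.58 at 48 and 96 h, beside 0.0 and -0.08 over the 4789 genes.

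**Figure D3:**
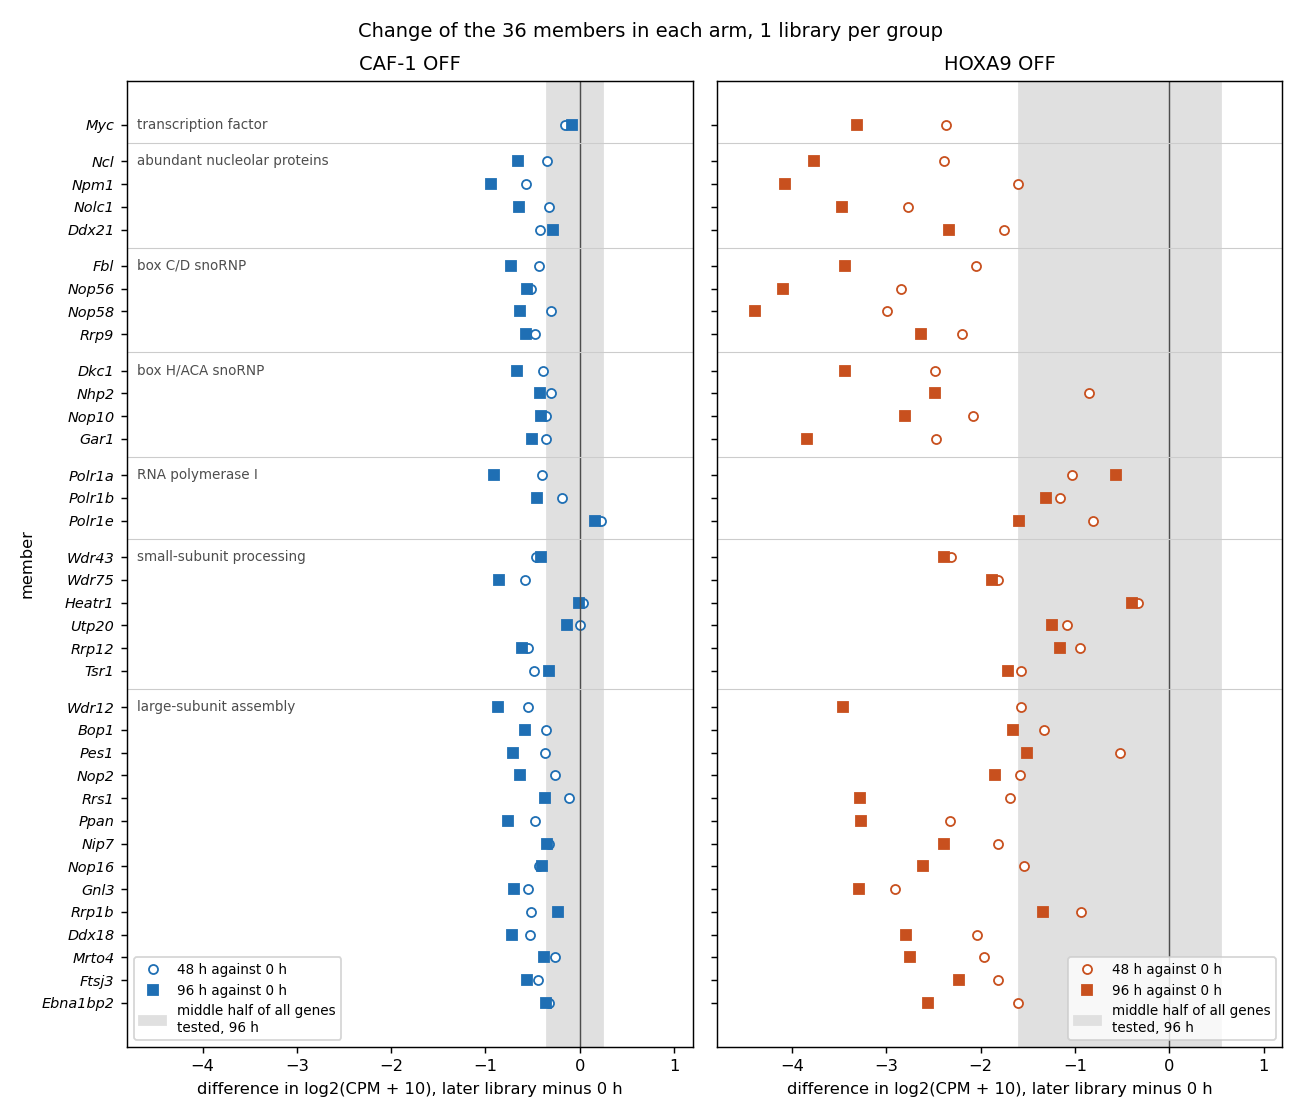
Difference in log2(CPM + 10) between the 48 h (open circles) or 96 h (squares) library and the 0 h library of the same arm for each of the 36 members, grouped by role. The grey band spans the quartiles of the 4789 genes averaging 20 CPM or more at 96 h. In CAF-1 OFF nearly all members sat between 0 and -1, and in HOXA9 OFF the box C/D proteins Nop58 and Nop56 and the nucleolar protein Npm1 reached -4.08 or lower.

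Among the abundant nucleolar proteins, nucleophosmin (Npm1) and nucleolin (Ncl), multifunctional proteins of the outer and inner nucleolus, carried much of the sum. They made up 45.8% of the members' UMIs at 0 h of CAF-1 OFF and 45.9% at 0 h of HOXA9 OFF. Npm1 (chromosome 11, 33152498 to 33164142) was at 3022, 2026 and 1571 CPM under CAF-1 OFF, against 2926, 953 and 164 CPM under HOXA9 OFF. On log2(CPM + 10) that was the largest difference of any member over 20 CPM at 96 h of CAF-1 OFF. It was 1.92-fold lower (1.87 to 1.98) there and 17.9-fold lower (16.4 to 19.5) at 96 h of HOXA9 OFF. Npm1 has processed pseudogenes that could share its reads, so its single-gene values are less certain. Ncl (chromosome 1, 86344719 to 86359455) was at 941, 736 and 596 CPM and at 1002, 182 and 64.1 CPM. Both genes were ordered the same way in time in both arms, but the order of the genes was not the same, since Ncl was the lower of them relative to 0 h at 48 h of HOXA9 OFF (5.49-fold against 3.07-fold) and Npm1 at 96 h (17.9-fold against 15.6-fold). Nolc1, a chaperone of snoRNPs, was 1.61-fold lower (1.46 to 1.77) at 96 h of CAF-1 OFF and 23.4-fold lower (16.2 to 35.2) at 96 h of HOXA9 OFF. Ddx21, a helicase that couples RNA polymerase I transcription to processing, was at 65.3, 46.2 and 51.7 CPM under CAF-1 OFF, among the smallest differences there at 96 h, and at 75.2, 15.3 and 6.81 CPM under HOXA9 OFF.

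The box C/D snoRNP proteins were the role with the largest difference at 96 h of HOXA9 OFF. Their sum was at 1003, 741 and 629 CPM under CAF-1 OFF, against 888, 124 and 28.9 CPM under HOXA9 OFF, or 0.139 (0.128 to 0.151) and 0.0326 (0.0265 to 0.0397) of its 0 h level. Fbl, the methyltransferase fibrillarin, was at 353, 260 and 209 CPM and at 311, 67.6 and 19.6 CPM. The scaffold proteins went further down in HOXA9 OFF. Nop58 was at 294, 236 and 186 CPM under CAF-1 OFF, against 249, 22.4 and 2.27 CPM under HOXA9 OFF, 110-fold lower (55.4 to 254) at 96 h on 8 UMIs. Nop56 was at 302, 209 and 201 CPM and at 273, 29.2 and 6.53 CPM. Rrp9, which marks the U3 snoRNP needed for the first cuts of the precursor, was down to 2 UMIs at 96 h of HOXA9 OFF, 98.0-fold lower (26.8 to 814).

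The box H/ACA proteins differed less and unequally. Their sum was 0.782 and 0.728 of its 0 h level in CAF-1 OFF, against 0.278 and 0.118 in HOXA9 OFF. Dkc1, the pseudouridine synthase dyskerin, was at 143, 107 and 86.4 CPM and at 126, 14.3 and 2.55 CPM. Gar1 was at 204, 157 and 141 CPM and at 179, 23.9 and 3.12 CPM. The small proteins Nop10 and Nhp2 were the better kept members of the same particle. Nop10 was at 917, 716 and 688 CPM and at 994, 227 and 134 CPM. Nhp2 was at 388, 312 and 288 CPM and at 363, 197 and 56.5 CPM, only 1.84-fold lower (1.70 to 1.99) at 48 h of HOXA9 OFF when Dkc1 was 8.84-fold lower (6.94 to 11.4). As a result the box H/ACA proteins made up 19.4% of the nucleolar UMIs at 0 h of HOXA9 OFF and 30.9% at 96 h, while box C/D proteins went from 10.4% to 4.57%.

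The 3 RNA polymerase I subunits were all under a mean of 20 CPM and did not move as one. Polr1a, the largest subunit, was at 15.7, 9.48 and 3.71 CPM under CAF-1 OFF, 4.22-fold lower (2.53 to 7.36) at 96 h on 20 UMIs. Under HOXA9 OFF its level was 15.8, 2.64 and 7.38 CPM, higher at 96 h than at 48 h. Polr1b, the second subunit, was at 12.6, 9.84 and 6.49 CPM under CAF-1 OFF, against 14.8 and 1.13 CPM and then 0 UMIs with HOXA9 OFF, which against a floor of 3 UMIs is at least 17.4-fold lower. Polr1e was above its 0 h level at both times of CAF-1 OFF (Heatr1 and Utp20 were at 48 h, on few UMIs), at 21.8, 27.2 and 25.6 CPM. Its 0 h level was 0.803 (0.613 to 1.05) of that at 48 h, an interval that holds 1, and its HOXA9 OFF levels were 22.7, 8.66 and 0.851 CPM. Of 17 other genes of polymerase I transcription, some of them subunits shared with other polymerases, 12 met the 20 CPM limit and 4 and 6 were 2-fold lower at 48 and 96 h of HOXA9 OFF, beside 19.6% and 39.8% of all genes that met it, and 0 were in CAF-1 OFF. Ubtf, the factor that binds the ribosomal DNA, was at 45.1, 40.4 and 36.9 CPM and at 50.1, 23.9 and 34.6 CPM.

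The small-subunit factors summed to 0.661 (0.597 to 0.731) and 0.646 (0.583 to 0.716) of their 0 h level in CAF-1 OFF and to 0.108 (0.0869 to 0.132) and 0.0757 (0.0555 to 0.101) in HOXA9 OFF. Most of this sum was Wdr43 and Wdr75, which act at the start of small-subunit processing alongside polymerase I. Wdr43 was at 89.0, 61.9 and 64.7 CPM and at 92.6, 10.5 and 9.65 CPM, lower at 48 h and about level from there in both arms. Wdr75 was at 47.2, 28.3 and 21.7 CPM and at 33.2, 2.26 and 1.70 CPM, and was 2.18-fold lower (1.72 to 2.76) at 96 h of CAF-1 OFF, under the 2-fold limit on log2(CPM + 10). Tsr1, a late factor of the small subunit, was at 34.9, 22.2 and 25.8 CPM and at 26.5, 2.26 and 1.13 CPM. Rrp12 was 2.31-fold lower (1.52 to 3.58) at 96 h of CAF-1 OFF on 36 UMIs. Utp20 was at 8.30, 8.41 and 6.67 CPM there and at 0 UMIs at 96 h of HOXA9 OFF, at least 16.0-fold lower. Heatr1, at 1.19 to 4.30 CPM at 0 h, had too few UMIs to follow.

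The large-subunit factors summed to 1504, 1127 and 1007 CPM under CAF-1 OFF, against 1578, 382 and 144 CPM under HOXA9 OFF. Wdr12, Bop1 and Pes1 form one complex (PeBoW), and their transcripts did not stay in proportion. Wdr12 was at 122, 80.2 and 62.5 CPM under CAF-1 OFF, against 144, 41.8 and 3.97 CPM under HOXA9 OFF, 36.3-fold lower (21.5 to 66.9) at 96 h. Bop1 was at 58.4, 43.5 and 35.6 CPM and at 48.2, 13.2 and 8.51 CPM, 5.66-fold lower (3.85 to 8.61). Pes1 was at 74.7, 55.5 and 41.7 CPM and at 60.4, 39.0 and 14.8 CPM, 4.09-fold lower (3.03 to 5.63). Pes1 and Bop1, with Rrp1b, were the 3 members over 20 CPM with the smallest difference at 96 h of HOXA9 OFF, while in CAF-1 OFF the 3 complex members were 1.95-fold (1.69 to 2.24), 1.64-fold (1.35 to 1.99) and 1.79-fold (1.51 to 2.14) lower.

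Ebna1bp2, which helps process the large-subunit RNA, was at 248, 196 and 192 CPM under CAF-1 OFF, against 275, 84.0 and 38.3 CPM under HOXA9 OFF. Rrp1b was at 34.6, 21.1 and 28.2 CPM and at 35.3, 13.7 and 7.94 CPM, lowest at 48 h in CAF-1 OFF. Gnl3, the GTPase nucleostemin of stem and progenitor cells, was at 136, 90.0 and 80.3 CPM and at 124, 7.91 and 3.69 CPM. Rrs1, which brings the 5S particle into the large subunit, was little changed at 48 h of CAF-1 OFF, at 131, 121 and 99.9 CPM, with a 48 h fold of 1.09 whose interval (0.971 to 1.22) holds 1. The remaining large-subunit members (Nop2, Ppan, Nip7, Nop16, Ddx18, Mrto4, Ftsj3) had log2 differences of -0.76 to -0.34 at 96 h of CAF-1 OFF and -3.27 to -1.85 at 96 h of HOXA9 OFF.

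Other assembly factors outside the 36 had sums that moved less than the nucleolar sum. Members and lists were chosen with earlier results of these data known, so this difference cannot be weighed. Of 44 other small-subunit factors in the table, 32 met the 20 CPM limit, and 18 and 24 were 2-fold lower at 48 and 96 h of HOXA9 OFF, beside the same 19.6% and 39.8% of all genes. The sum of that list was 0.822 and 0.734 of its 0 h level in CAF-1 OFF, against 0.412 and 0.275 in HOXA9 OFF. Of 36 other large-subunit factors, 28 met the limit and 17 and 21 were 2-fold lower in HOXA9 OFF, with sums at 0.795, 0.725, 0.384 and 0.285. None of either list was 2-fold lower in CAF-1 OFF. Wdr18 was nearest to it there, at 102, 66.7 and 48.2 CPM. Some factors were level in HOXA9 OFF, such as Sbds, which frees new large subunits for use, at 62.3, 53.1 and 61.6 CPM, and Krr1, at 47.5, 46.5 and 55.0 CPM. Of the 11 RNA exosome genes that met the limit, 9 were 2-fold lower at both times of HOXA9 OFF, and C1d was not, at 167, 191 and 138 CPM there beside 165, 100 and 92.1 CPM under CAF-1 OFF.

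As a share of the library, transcripts of the ribosome's own proteins did not follow the nucleolar genes in time. Per kept cell, which also carries the total RNA captured, they were at 1778, 1558 and 1543 UMIs in CAF-1 OFF. In HOXA9 OFF they were at 2480, 1041 and 205 UMIs per kept cell. The 77 cytosolic ribosomal protein genes summed to 0.946 (0.944 to 0.949) and 0.955 (0.952 to 0.957) of their 0 h level in CAF-1 OFF. In HOXA9 OFF they were at 0.983 (0.980 to 0.985) at 48 h, with 0 of 77 genes 2-fold lower, and at 0.313 (0.312 to 0.314) at 96 h, with 66 lower. Of all genes averaging 20 CPM or more, 19.6% and 39.8% were 2-fold lower at 48 and 96 h of HOXA9 OFF. The nucleolar sum was at 0.254 at that 48 h time. With TMM scaling the ribosomal protein sum was instead above its 0 h level, by 0.28 on the log2 scale at 48 h of HOXA9 OFF (0.21 with median-of-ratios factors) and by 0.014 at 96 h of CAF-1 OFF. The mitochondrial ribosome genes, whose ribosome is assembled outside the nucleolus, were at 0.918 and 0.862 in CAF-1 OFF, against 0.596 and 0.335 in HOXA9 OFF. The 3 snoRNA host genes in the table were at 0.877 and 1.09 in CAF-1 OFF, against 0.737 and 0.217 in HOXA9 OFF.

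Cell cycle genes went with the nucleolar sum in HOXA9 OFF, and in CAF-1 OFF the G2/M genes did not. The S phase list summed to 0.958 and 0.793 of its 0 h level in CAF-1 OFF, against 0.345 and 0.0649 in HOXA9 OFF, and the G2/M list to 1.11 at both times and to 0.484 and 0.0778. Within each library, thinned cells with 3 or more UMIs of these lists had a higher nucleolar sum than those with 1 or 2. In the former the sum was 8636, 6255 and 5365 CPM under CAF-1 OFF, against 8362, 2463 and 810 CPM under HOXA9 OFF. In CAF-1 OFF the sum of these cells was again lower at 48 h and lower still at 96 h. At 96 h of HOXA9 OFF the range held 38 cells, and its interval (578 to 1103) overlapped that of cells with 1 or 2 (523 to 641). Its cells also held fewer cell cycle UMIs there, at 2551 CPM against 6426 CPM at 0 h. At 48 h of HOXA9 OFF, 411 cells (29.9%) still had 3 or more cell cycle UMIs, at a nucleolar sum of 2463 CPM (2332 to 2600).

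**Figure D4:**
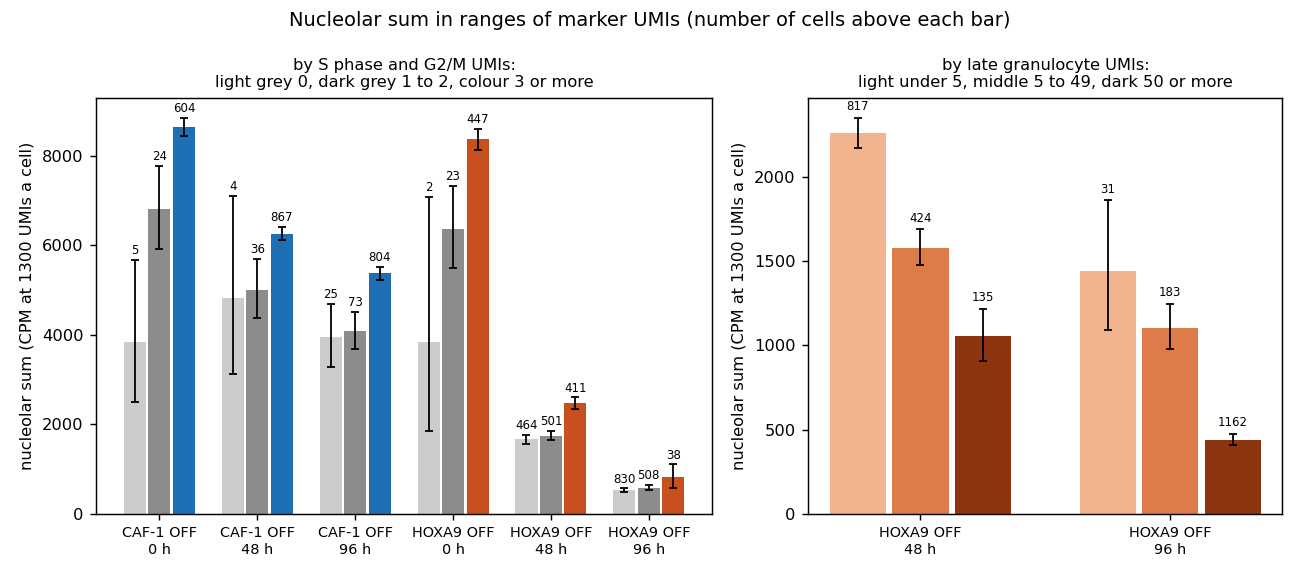
Summed CPM of the 35 nucleolar members in cells thinned to 1300 UMIs, split by UMIs of the S phase and G2/M lists (left) and, in HOXA9 OFF at 48 and 96 h, by UMIs of the late granulocyte list (right). Bars are sums over cells with exact 95% Poisson intervals, and the number above each bar is its count of cells. The sum is higher in cells with 3 or more cell cycle UMIs, although at 96 h of HOXA9 OFF their interval overlaps that of cells with 1 to 2. It is lower in cells with 50 or more late granulocyte UMIs. At 48 h of HOXA9 OFF, cells with under 5 late granulocyte UMIs were at 2259 CPM. The ranges are not cell types.

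Markers of other blood cell types differed with time in both arms, and their part in the nucleolar difference was not tested beyond the ranges of marker UMIs given here. The 11 late granulocyte markers summed to 33.9, 719 and 1200 CPM under CAF-1 OFF, where Ltf had no UMI in any library, and to 30.3, 10478 and 151637 CPM under HOXA9 OFF. The mast cell list summed to 286, 1465 and 4044 CPM under CAF-1 OFF, with Tpsb2, Tpsab1 and Mcpt4 at 0 throughout, and to 812, 530 and 85.1 CPM under HOXA9 OFF. The megakaryocyte list, led by Pf4, summed to 45.8, 503 and 2697 CPM and to 36.3, 77.0 and 17.9 CPM. Of that list, Gp1bb and Gp6 were at 0 throughout CAF-1 OFF. The eosinophil list summed to 217, 460 and 1242 CPM and to 1470, 19278 and 3264 CPM. In CAF-1 OFF its Ear1 and Ear6 were at 0 throughout, and Epx had UMIs at 0 h but none at 96 h. The early granulocyte list summed to 6452, 9053 and 12997 CPM and to 5584, 5612 and 193 CPM.

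At 96 h of CAF-1 OFF the nucleolar sum differed little between cells with few and many of these markers, and the counting intervals overlapped. Cells with under 3 UMIs of the late granulocyte, eosinophil, mast cell and megakaryocyte lists together were at 5159 CPM (4568 to 5807, 41 cells), those with 3 to 9 at 5358 CPM (5154 to 5568, 374 cells) and those with 10 or more at 5122 CPM (4948 to 5302, 487 cells). At 48 h the ranges differed, with 6717 CPM (6500 to 6940) in 415 cells, 5937 CPM (5736 to 6145) in 423 cells and 4682 CPM (4245 to 5152) in 69 cells. Cells with under 3 such UMIs were thus lower than the 8520 CPM (8318 to 8725) of the same range at 0 h at both times.

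In HOXA9 OFF the sum followed the late granulocyte markers. At 48 h, cells with under 5 of these UMIs were at 2259 CPM (2169 to 2351, 817 cells), those with 5 to 49 at 1580 CPM (1477 to 1689, 424 cells) and those with 50 or more at 1054 CPM (908 to 1218, 135 cells). At 96 h the same ranges were at 1439 CPM (1093 to 1861, 31 cells), 1106 CPM (976 to 1248, 183 cells) and 440 CPM (407 to 474, 1162 cells). Cells with 10 or more eosinophil UMIs were at 2154 CPM (1996 to 2321, 245 cells) at 48 h and cells with 10 or more early granulocyte UMIs at 2437 CPM (2293 to 2587, 339 cells). Of the 13 Myc UMIs in thinned cells at 48 h, 12 were in cells with under 5 late granulocyte UMIs. These are ranges of marker UMIs and not cell types, and a cell's markers and nucleolar genes share its 1300 UMIs.

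Per cell, the median number of nucleolar UMIs was lower at later times, although the highest single cell of CAF-1 OFF was at 48 h (27 UMIs, against 25 at 0 h). At 1300 UMIs the median cell held 11 nucleolar UMIs at 0 h of CAF-1 OFF (10th and 90th percentiles 6 and 16), 8 at 48 h (4 and 13) and 7 at 96 h (3 and 11). The median in HOXA9 OFF was 11 (6 and 16), 2 (0 and 5) and 0 (0 and 2). No cell of the 0 h libraries had 0, whereas 12.2% had 0 at 48 h and 53.7% at 96 h of HOXA9 OFF, and 0.110% and 0.776% in CAF-1 OFF. Thinning left out 14, 20 and 9 cells of CAF-1 OFF and 1, 28 and 134 cells of HOXA9 OFF that had fewer UMIs.

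**Figure D5:**
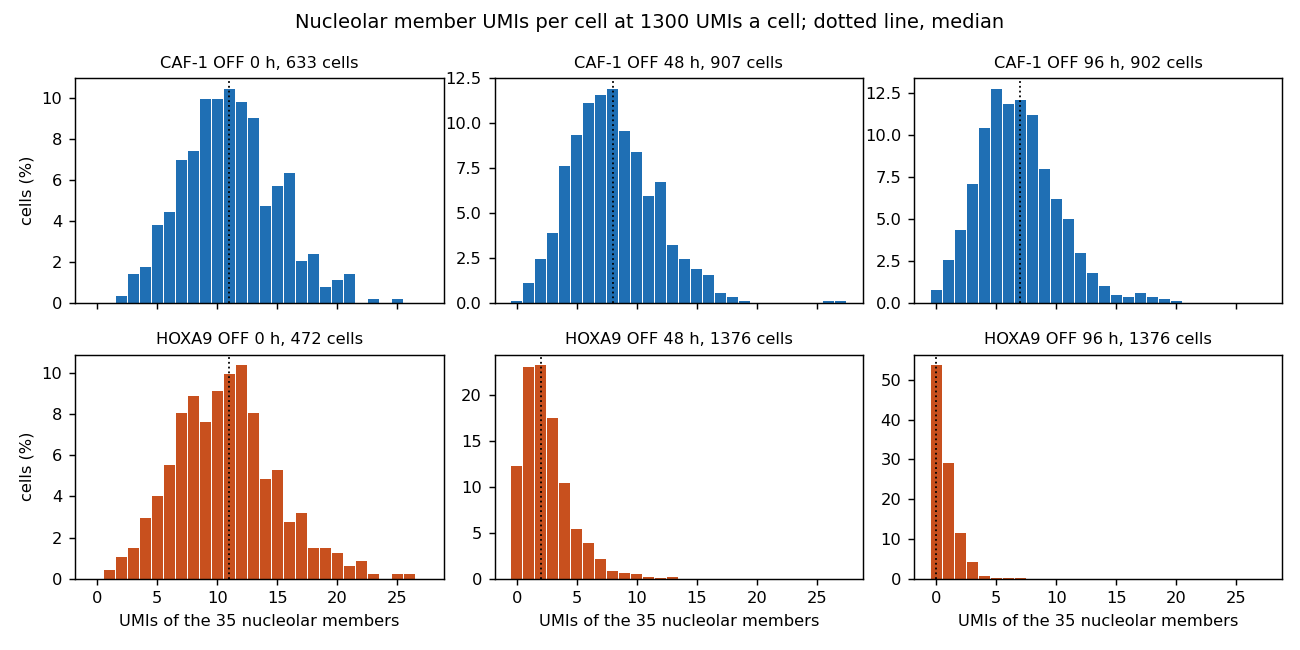
Share of cells (%) by the number of UMIs of the 35 nucleolar members, after thinning each cell to 1300 UMIs, in the 6 libraries (vertical scales differ). The dotted line marks the median, which was 11, 8 and 7 in CAF-1 OFF, against 11, 2 and 0 in HOXA9 OFF.

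Because MYC with MAX binds the E-box CACGTG, promoters of the members were searched for it. RefSeq windows (GRCm38.p6) from 250 bases before to 50 bases after a transcription start were matched for 30 of the 36 members, and none was matched for Myc, Npm1, Fbl, Rrp12, Bop1 and Rrs1. The motif, which reads the same on both strands, was found in 5 of the 30 (16.7%), beside 12.8% of the 3715 matched genes averaging 20 CPM or more and 8.09% of all 27025 genes with a window. The 5 stretches are shown in the direction of transcription, with the motif in capitals, since they are the members with the letters of a MYC site next to their start.
Nop2 (chr6:125131811-125131840, + strand): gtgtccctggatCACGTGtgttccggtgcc
Pes1 (chr11:3963965-3963994, + strand): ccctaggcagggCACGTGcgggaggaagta
Tsr1 (chr11:74898092-74898121, + strand): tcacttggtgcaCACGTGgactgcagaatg
Utp20 (chr10:88826765-88826789, - strand): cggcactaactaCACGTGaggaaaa
Wdr43 (chr17:71616220-71616249, + strand): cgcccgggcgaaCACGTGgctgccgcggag

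The motif's first base lay 60 bases before the start in Nop2 and at positions 3, 25, 38 and 18 after it in Pes1, Tsr1, Utp20 and Wdr43, with the start as position 1. The 5 with it had a median log2 difference of -0.41 at 96 h of CAF-1 OFF and -1.71 at 96 h of HOXA9 OFF, and the 25 without it had -0.56 and -2.63. The motif was held by 24.3% of 37 matched other small-subunit factors and 23.3% of 30 other large-subunit factors, both above the share of the members, by 47.6% of 21 other Myc target genes and by 10.5% of 57 cytosolic ribosomal protein genes. A match is only a run of letters, and its absence says only that the letters are not in this window.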

How the data were processed

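The cells were profiled with 10x Chromium 3′ chemistry (v2). Per the labels and the study's methods, the authors aligned reads to mm10 with Cell Ranger (version 3.0.1 in the submitters' processing notes, which also name Scanpy 1.4.6 and Seurat 3.0.1) and deposited 1 table of raw UMI counts per barcode and gene, pooling 6 libraries, with 27998 gene columns and 7821 barcodes. The barcode endings, listed in the labels, gave each cell's library. Cells with 200 to 6000 genes and at most 10% mitochondrial UMIs were kept (the study's limits), 5872 in all, with no doublet removal. Counts were summed per library and scaled to CPM. Folds have exact conditional (Clopper-Pearson) intervals and levels exact Poisson intervals at 95%, covering counting error only. A call means 2-fold or more on log2(CPM + 10). The floor for a count of 0 was 3 UMIs, or 0.537 to 0.851 CPM. For shares and ranges of cells, each cell was thinned to 1300 UMIs (seed 1). 3′ UMI counts are not scaled by length. edgeR 4.0.16 gave the TMM factors tried as an alternative, scanpy 1.11.5 the doublet calls. The functions were tested on simulated data. Members, lists and call rules were chosen with earlier results of these data known. Named were Myc, the member with the highest mean CPM of each role, the 3 largest and smallest differences at 96 h per arm, and members at 0 or against the rest. Others were added after their values were seen. Alternatives varied the cell filter, doublets, scaling, baseline, pseudocount, fold, thinning depth and motif.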

Additional observations from a re-analysis of the deposited data

Results flagged for a closer look

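Some lists measured beside the nucleolar members went in opposite directions in the arms, with 1 library per group, and the difference between the arms was not tested. The G2/M list was at 1.106 times its 0 h level at 48 h and 1.112 times at 96 h of CAF-1 OFF, and at 0.4843 and 0.07783 times in HOXA9 OFF. The mast cell list was at 5.117 and 14.12 times in CAF-1 OFF and at 0.6524 and 0.1049 times in HOXA9 OFF. At 96 h the early granulocyte list was at 2.015 times in CAF-1 OFF and 0.03455 times in HOXA9 OFF, and the megakaryocyte list at 58.9 and 0.4928 times. Of the mast cell and megakaryocyte lists, Tpsab1, Mcpt4 and Gp1bb had no UMI in any library. The nucleolar sum was lower than at 0 h in both arms.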

How the results depend on the processing

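The nucleolar sum was lower than at 0 h under every alternative run. Myc in CAF-1 OFF, which was not called, changed sign under some. On the log2 scale the nucleolar sum was -0.45 and -0.69 at 48 and 96 h of CAF-1 OFF, against -1.98 and -3.76 with HOXA9 OFF. In that order it was -0.40, -0.63, -1.81 and -3.58 with all deposited barcodes, -0.36, -0.59, -2.16 and -3.87 with at most 5% mitochondrial UMIs, -0.52, -0.67, -1.74 and -3.19 with median-of-ratios factors, -0.57, -0.83, -3.21 and -5.68 as UMIs per kept cell, and -0.40, -0.56, -2.16 and -3.51 without Npm1 and Ncl. TMM factors gave -0.61 at 96 h of CAF-1 OFF, against -1.68 and -3.27 with HOXA9 OFF, shifting all genes there by 0.30 and 0.49. Without mitochondrial and ribosomal protein genes in the total it was -0.48 at 48 h of CAF-1 OFF and -4.17 at 96 h of HOXA9 OFF, and the mean over cells gave -2.10 and -3.96 in HOXA9 OFF. Chosen after seeing the data, cells with under 3 UMIs of other cell type lists gave -0.34, -0.72, -1.82 and -2.86, the last on 2 cells at 96 h, and cells with 3 or more cell cycle UMIs gave -1.76 and -3.37 in HOXA9 OFF.

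Myc in CAF-1 OFF was at -0.16 and -0.09, but at 0.017 and 0.067 with at most 5% mitochondrial UMIs, and at 96 h at 0.0049 against the other arm's 0 h library. In HOXA9 OFF it was -4.42 and -9.31 per kept cell, -3.08 and -5.93 with a pseudocount of 1 CPM and -1.26 and -1.52 with 50 CPM, and at 96 h -3.84 without mitochondrial and ribosomal protein genes in the total and -3.40 against the other arm's 0 h library. Against that library 1 and 2 of the 28 members averaging 20 CPM or more were lower at 48 and 96 h of CAF-1 OFF. At 96 h 1 of the 28 was with a pseudocount of 1 CPM and 13 were at 1.5-fold. At 4-fold, 13 of the 28 were at 48 h of HOXA9 OFF. The share of all genes under these settings was not computed, so these counts cannot be weighed. Over genes with any UMI, the lower share was 0.342% at 96 h of CAF-1 OFF, against 7.46% and 16.2% with HOXA9 OFF, and the higher share 1.13%, 2.44%, 5.33% and 9.16%. The share of cells with a Myc UMI was 21.5%, 19.2%, 20.8%, 21.4%, 1.97% and 0% at 2600 UMIs and 44.5%, 37.0%, 37.0%, 49.9% and 3.42% without thinning. With CACGCG added, 43.3% of members held a motif, beside 30.6% of genes averaging 20 CPM or more and 48.6% and 56.7% of the other small- and large-subunit factors. The cause of these movements was not tested. No paired analysis was possible because each group was 1 library.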
